A study of Mus musculus with 9 samples.

Results

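The Hedgehog pathway was followed through 10 genes in mouse pluripotent cells: the ligand genes Shh and Ihh, the receptor Ptch1, the surface proteins Cdon, Boc and Hhip, the signal transducer Smo and the transcription factors Gli1, Gli2 and Gli3. Members were taken by name from the platform annotation, which gave 24 probe sets among 45101. A gene was represented by whichever of its probe sets had the highest mean over the 9 arrays, and the remaining ones served as a check. All 10 genes had a probe set with a single symbol, and 18193 genes were measured in this way. The pathway was chosen by the levels of Shh, known to be low in 2 of the 3 groups, so these levels are given as a description, with no test. The mean over all arrays chose the probe sets. It does not fix a difference between groups, and the other 9 genes were tested within the fit of all 18193 genes. These 9 genes and the gene lists below were also chosen with earlier results of these data known. Their adjusted p-values, and counts set beside the shares of all genes, are therefore no independent test.

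RNA came from 3 groups of C57BL/6 cultures, each with 3 Affymetrix whole-genome mouse arrays labelled as biological replicates. Epiblast stem cells (EpiSCs), which resemble the epiblast after implantation, received either vehicle or IWP2, which blocks Porcupine, the enzyme that attaches a fatty acid to Wnt proteins before secretion. All EpiSCs grew in N2B27 medium containing 20 ng/ml Activin A plus 12 ng/ml bFGF, on plates coated with gelatine and serum. Embryonic stem cells (ESCs), which represent the earlier naive state, grew on gelatine in N2B27 containing 1000 U/ml LIF plus 250 ng/ml Wnt3a, so cell type and medium changed together. The sources used here state neither how much IWP2 was added or for how long, nor the number of cell lines or clones behind each group, and the p-values measure the spread between these cultures. The treatment protocol mentions addition of Wnt3a after IWP2, and such samples were not analysed here.

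Values are log2 signals after RMA, a method that corrects background, equalises the distributions of the arrays and summarises the probes of a set. A log2 difference of 1 is a 2-fold change. The lower quartile of all values, 3.72, is taken as the floor, and a difference against a group at or near it is a lower limit of its size. Replicates correlated at 0.997 to 0.998 and arrays of different groups at 0.927 to 0.985. The cell labels held: Zfp42, a naive marker, was at 12.98 in ESCs and 2.54 and 2.47 in the EpiSC groups, and Fgf5, a primed marker, was at 10.86 with vehicle, 8.38 with IWP2 and 3.28 in ESCs. The 3' minus 5' signal of the actin control probe sets, a sign of RNA quality, was 0.533 to 0.587 log2 with vehicle, 0.64 to 0.689 with IWP2 and 0.639 to 0.665 in ESCs. Its part in the results was not tested.

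Hedgehog proteins are secreted ligands that carry 2 lipids, cholesterol and palmitate, and bind the receptor Ptch1 at the surface of the receiving cell. Without ligand, Ptch1 at the primary cilium holds Smo inactive, and Gli3 is cut to a repressor. With ligand Smo is released and Gli2 and Gli3 become activators. Gli1, Ptch1 and Hhip are genes that the activated pathway switches on in most responding tissues, and their RNA is widely used as its readout. In the early mouse embryo Shh is made by the node, the notochord, the floor plate and the gut endoderm.

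Among the feedback targets, Ptch1 and Hhip behaved differently in the data below, so the 250 bases upstream of their RefSeq starts are shown. The capitals mark GC boxes (GGGCGG on either strand). Ptch1 lies on the minus strand at chr13:63565736-63565985 and Hhip on the minus strand at chr8:80058009-80058258, both in GRCm38.p6.
Ptch1: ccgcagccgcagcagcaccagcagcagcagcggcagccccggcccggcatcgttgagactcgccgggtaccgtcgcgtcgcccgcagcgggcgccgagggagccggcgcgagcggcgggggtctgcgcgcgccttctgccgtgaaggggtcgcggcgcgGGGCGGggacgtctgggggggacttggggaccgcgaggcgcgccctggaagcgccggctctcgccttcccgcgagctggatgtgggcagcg
Hhip: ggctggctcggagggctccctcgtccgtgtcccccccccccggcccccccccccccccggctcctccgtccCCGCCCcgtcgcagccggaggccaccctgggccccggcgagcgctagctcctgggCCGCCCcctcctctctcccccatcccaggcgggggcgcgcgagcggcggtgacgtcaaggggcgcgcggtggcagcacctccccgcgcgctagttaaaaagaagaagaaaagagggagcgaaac
The Ptch1 stretch holds 1 GC box and the Hhip stretch holds 2, and 35.7% of the 32851 RefSeq promoter windows of 300 bases (250 before to 50 after a start) hold at least 1. The Gli consensus GACCACCCA, sought on both strands as GACCACCCA or TGGGTGGTC, was in 0 of the 7 windows found for 7 of the 10 members and in 0 of 14 windows of 11 other Hedgehog target genes. It is in 0.253% of all windows, and its absence says only that these letters are not in them. GC boxes were in 5 of the same 7 member windows and in 11 of the same 14 target windows. Any link between GC boxes and the RNA signals was not tested.

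Shh was high in vehicle EpiSCs and low in the other groups. Its signal on the 3 vehicle arrays was 10.65, 10.65 and 10.95. With IWP2 it was 4.12, 4.21 and 3.96, and in ESCs it was 4.60, 4.59 and 4.76. Both of these groups lay far below every vehicle array and close to the floor. The means were 10.75 ± 0.172 with vehicle, 4.09 ± 0.123 with IWP2 and 4.65 ± 0.096 in ESCs (SD, n = 3). The vehicle mean was 101-fold above that with IWP2 and 68.5-fold above that of ESCs. The second Shh probe set was far dimmer, at 4.75, 3.55 and 3.51 in the same order, and had vehicle highest too. It placed ESCs 0.04 log2 units below IWP2 where the brighter one placed them 0.56 above, so the order of the groups close to the floor is not settled.

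The signals of the other Hedgehog ligand genes differed little between groups. Ihh, the ligand of cartilage and of visceral endoderm, lay between 3.57 and 4.13 on all 9 arrays, at the floor. Its differences were 0.13 with IWP2 and 0.20 in ESCs relative to vehicle, and neither was called (limma adjusted p = 0.523 and 0.224). Dhh, the ligand of testis and peripheral nerve, was at 4.36 with vehicle, 4.44 with IWP2 and 4.65 in ESCs. ESCs were higher than vehicle by 0.29 ± 0.097 (SE, limma adjusted p = 0.0248). The dim second probe set of Shh shows that a low signal on 1 probe set does not give the amount of RNA, so the 3 ligands are not ranked here.

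**Figure D1:**
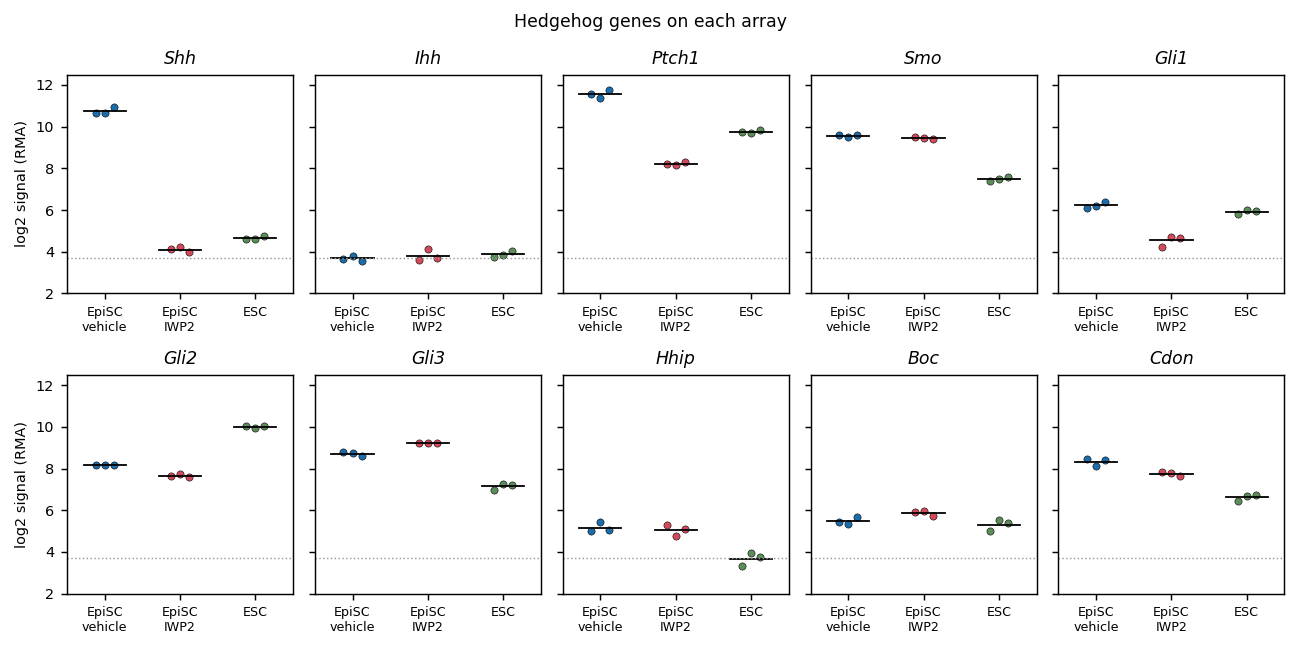
RNA signal of the 10 Hedgehog genes on each array (vertical axis, log2 RMA signal) in vehicle EpiSCs, IWP2-treated EpiSCs and ESCs. Points are arrays, bars are means of 3 and the dotted line is the lower quartile of all values (3.72). Shh and Ptch1 are highest with vehicle, Gli1 is lowest with IWP2, Gli2 is highest in ESCs, and Smo, Gli3 and Cdon are lowest in ESCs.

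The cells that make Shh in the embryo have further markers, and these moved with it. Their list was chosen with earlier results of these data known, so the counts below are a description and not a test. Of 11 measured genes of node, axial mesendoderm and definitive endoderm, 11 fell with IWP2, against 16.8% of all genes, and 11 were lower in ESCs than with vehicle, against 27.9%, with median differences of -3.83 and -3.54 against 0.03 and 0.12 over all genes. The summed linear signal of the 11 genes ranged from 4658 to 5455 with vehicle, from 206 to 215 with IWP2 and from 236 to 241 in ESCs. With IWP2 4 of them were under the floor and in ESCs 5. In these bulk samples fewer cells that make Shh and less Shh RNA per cell cannot be told apart. Foxa2, a forkhead factor that acts upstream of Shh in the midline and is also its target in the floor plate, was at 10.11, 4.04 and 4.40. It fell by 6.07 ± 0.107 with IWP2 (SE), given as a description like the counts. Lhx1 (-6.98), Cer1 (-5.42) and Foxa1 (-4.49) were the other largest falls of that list. Between ESCs and IWP2, 3 of the 11 were called: Gsc (0.52), Hhex (0.51) and Foxa2 (0.35). Gsc was under the floor in both groups and Foxa2 was near it with overlapping arrays, so their order is not settled, and only Hhex, at 5.61 and 6.12, was well above it.

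Further marker lists were summed in the same way, and sums of different lists are not compared. The summed signal of 8 fibroblast and feeder genes was 557 to 775 with vehicle, 386 to 449 with IWP2 and 193 to 203 in ESCs. Col1a2 was the brightest of them with vehicle, at 8.48, and was at 7.58 with IWP2 and 5.25 in ESCs. With IWP2 4 of the 8 fell and 2 rose, Dcn by 0.78 and Thy1 by 0.72, against 16.8% and 16.6% of all genes. Relative to vehicle, 5 were lower in ESCs and 1, Thy1, was higher (0.55), against 27.9% and 38.7%. For 8 neural tube genes the summed signal was 1117 to 1336, 266 to 309 and 217 to 230, and most of the vehicle sum was Irx3, at 9.99 with vehicle, 5.74 with IWP2 and 4.59 in ESCs. That sum does not describe the whole list. With IWP2 Irx3 and Pax3 fell, Nkx2-2 (1.40) and Dbx1 (0.29) rose and 4 were not called, against 16.8% of all genes lower and 16.6% higher. Further probe sets of Pax6 and Sox1 were called lower in ESCs than with vehicle (-0.95 and -1.14) and with IWP2 (-1.85 and -2.30). The part of either list in the Hedgehog results was not tested.

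The genes whose profile over the 9 arrays lay nearest to that of Shh were Bmp2, Foxa2, Lhx1, Cer1 and Pga5. Their root mean square distances from Shh, after centring each gene on its own mean, were 0.245, 0.271, 0.523, 0.557 and 0.567 log2 units. The arrays fall into 3 groups, so this likeness reflects little more than 3 group means. Among the Hedgehog genes Ptch1 was nearest to Shh, at 1.84 log2 units and rank 81 of 15814 genes. Gli2 was the farthest, at 3.40.

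With IWP2, 4 of the 9 tested genes fell (Ptch1, Gli1, Cdon and Gli2), 2 rose (Gli3 and Boc) and 3 were not called (Ihh, Smo and Hhip). The called share has to be read against the 33.5% of all genes called in this comparison, 16.8% lower and 16.6% higher. Changes of at least 2-fold were rarer, at 2.81% lower and 0.901% higher, and Ptch1 and Gli1 were the members among them. The median difference of the 9 genes was -0.13, against 0.03 over all genes. The vehicle and IWP2 arrays did not overlap in 7 of the 9, as in 47% of all genes.

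Ptch1, the ligand-binding receptor and a feedback target of the pathway, changed most. Its signal was 11.55, 11.38 and 11.76 with vehicle, 8.19, 8.14 and 8.31 with IWP2 and 9.72, 9.71 and 9.83 in ESCs. The 3 groups did not overlap, with ESCs between the EpiSC groups and all of them well above the floor. IWP2 lowered the mean from 11.57 ± 0.192 to 8.21 ± 0.086 (SD, n = 3). This is a fall by 3.35 ± 0.095 (SE, limma adjusted p = 8.47e-09), or 10.2-fold with a 95% interval of 8.82 to 11.8. It was the 49th largest fall among the 18193 genes. Of the other Ptch1 probe sets, one fell by 2.00, from 6.24 to 4.25. The other, with the second highest mean over the arrays, had group means between 5.04 and 5.35 and a difference of -0.16 (limma adjusted p over probe sets = 0.173), so the fall was not found on every probe set.

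Gli1, a transcriptional activator whose own gene is a target of Gli proteins, fell as well. Vehicle arrays gave 6.09, 6.20 and 6.39, IWP2 arrays 4.25, 4.70 and 4.67, and ESC arrays 5.80, 6.02 and 5.94. IWP2 arrays lay below all others by more than 1 log2 unit, while the ESC arrays came close to the vehicle arrays without overlapping them. The fall with IWP2 was 1.69 ± 0.126 (SE, limma adjusted p = 6.89e-06), or 3.22-fold with a 95% interval of 2.65 to 3.92. Leaving out any single array kept this difference between -1.54 and -1.77. The IWP2 mean of 4.54 lay close to the floor, so the size of the fall is a lower limit. Gli1 had 1 probe set, so no second one could be compared.

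Hhip encodes a membrane protein that binds Hedgehog ligands and is, like Ptch1 and Gli1, a feedback target. It did not move with them. Its signal was 5.02, 5.42 and 5.06 with vehicle and 5.29, 4.75 and 5.09 with IWP2, so that the groups overlapped. The difference was -0.12, with a 95% interval from -0.53 to 0.28 (limma adjusted p = 0.65). On ESC arrays it was 3.33, 3.95 and 3.76, at the floor. All 4 Hhip probe sets were low, with means of at most 5.17, and in each the IWP2 difference lay between -0.06 and -0.14 and was not called.

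**Figure D2:**
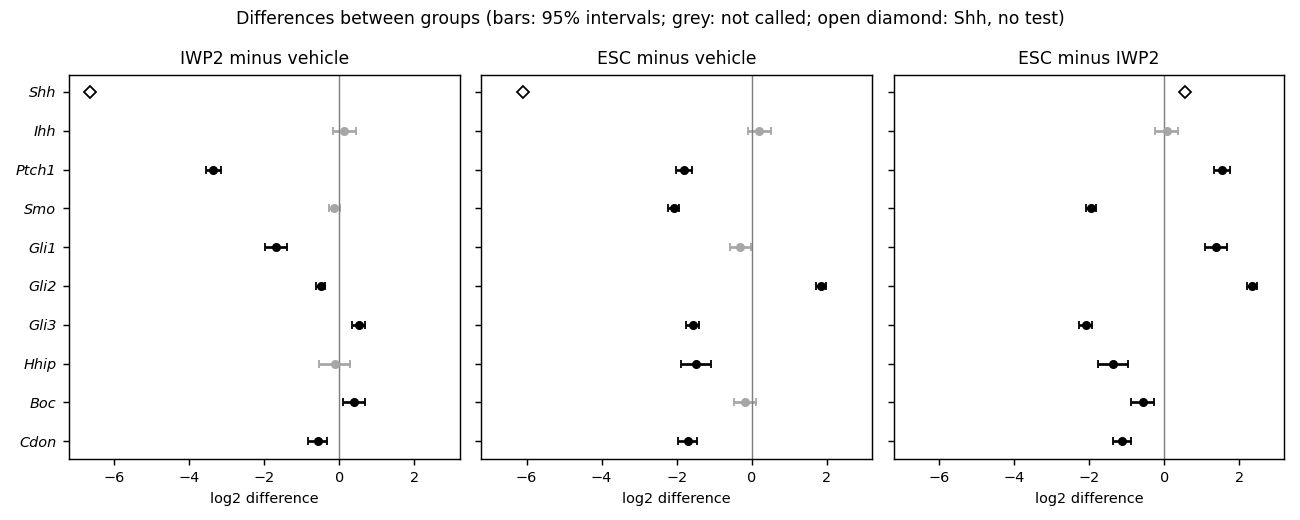
Log2 differences of the 10 Hedgehog genes between groups (horizontal axis), with 95% intervals from limma. Black points are called at an adjusted p under 0.05, grey points are not, and the open diamonds for Shh are descriptive. Ptch1 and Gli1 lie far below 0 for IWP2 minus vehicle and above 0 for ESC minus IWP2.

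Cdon and Boc are related co-receptors that bind Hedgehog ligands together with Ptch1, and in the neural tube their genes are repressed by the pathway. They went in opposite directions with IWP2. Cdon was at 8.45, 8.11 and 8.43 with vehicle, 7.82, 7.78 and 7.65 with IWP2 and 6.44, 6.68 and 6.73 in ESCs, without overlap of the groups. It fell by 0.58 ± 0.108 with IWP2 (SE, limma adjusted p = 0.00254). The second, dimmer Cdon probe set had a difference of -0.01 and was not called.

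Boc was at 5.42, 5.35 and 5.68 with vehicle, 5.92, 5.98 and 5.73 with IWP2 and 5.01, 5.51 and 5.37 in ESCs. The lowest IWP2 array, at 5.73, was barely above the highest vehicle array, at 5.68. The rise of 0.39 ± 0.134 (SE) just passed (limma adjusted p = 0.0466). The call was lost with cyclic loess scaling (limma adjusted p = 0.0667) and with the replicate number as a block (0.0615). It was also lost without vehicle replicates 1 or 2, IWP2 replicates 1 or 2 or ESC replicate 3 (adjusted p from 0.0562 to 0.148). Of the other Boc probe sets, the second rose by 0.32 (limma adjusted p over probe sets = 0.0292). The third, under the floor, was not called with IWP2. In ESCs relative to vehicle these 2 probe sets were called in opposite directions, at -0.33 and 0.20. Gas1, the third co-receptor, rose by 0.27 ± 0.055 (SE, limma adjusted p = 0.00374), from 8.31 to 8.58.

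Smo, the transmembrane transducer, kept its level in EpiSCs. It was at 9.58, 9.52 and 9.60 with vehicle and 9.48, 9.43 and 9.40 with IWP2. The arrays did not overlap, yet the difference of -0.13 was not called (limma adjusted p = 0.147), and its 95% interval reached from -0.27 to 0.01. In ESCs it was 7.38, 7.50 and 7.58. All 3 Smo probe sets had this pattern, with IWP2 differences of -0.08 to -0.13 and ESC minus vehicle differences of -1.28 to -2.20.

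Gli2, the main activator, and Gli3, the main repressor, moved oppositely and by little with IWP2. Gli2 was at 8.15, 8.19 and 8.16 with vehicle, 7.67, 7.73 and 7.60 with IWP2 and 10.02, 9.94 and 10.07 in ESCs. It fell by 0.50 ± 0.059 (SE, limma adjusted p = 0.000146) with IWP2. Gli3 was at 8.77, 8.77 and 8.62 with vehicle, 9.25, 9.23 and 9.23 with IWP2 and 6.99, 7.26 and 7.19 in ESCs. It rose by 0.52 ± 0.079 (SE, limma adjusted p = 0.000762). For both genes the 3 groups did not overlap. Further probe sets moved the same way: the second of Gli2 fell by 0.42 and the second of Gli3 rose by 0.45, whereas the third of Gli3, near the floor, was not called.

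**Figure D3:**
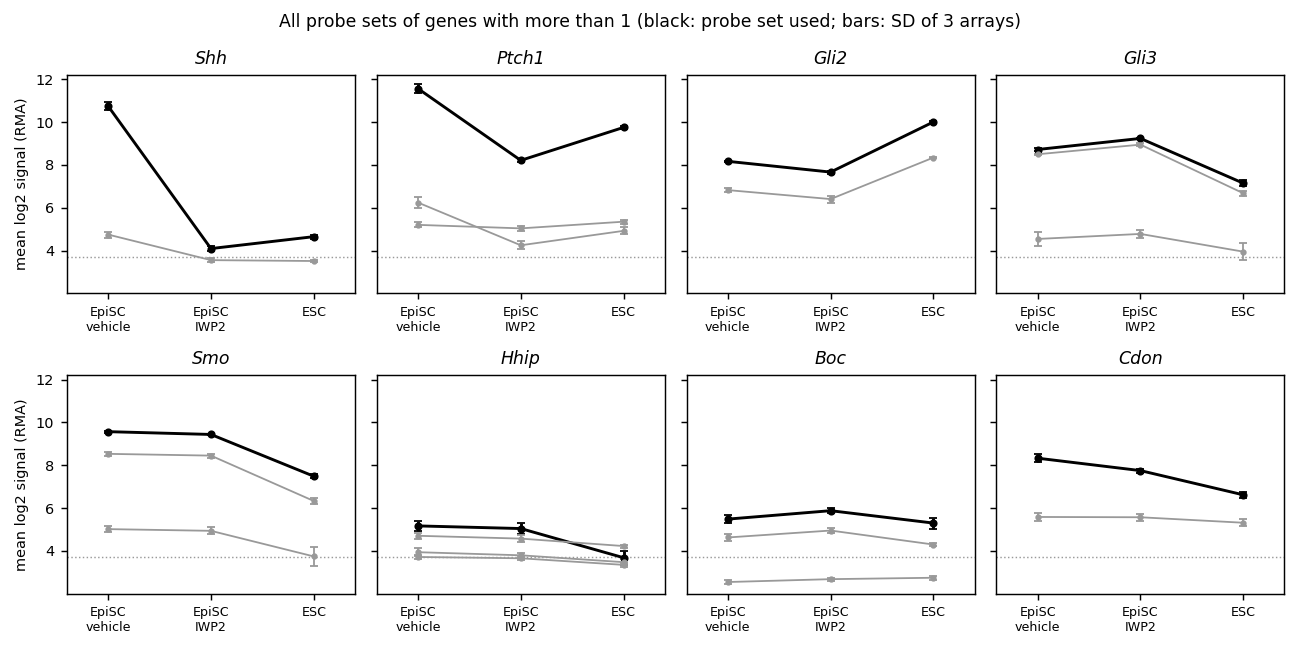
Mean log2 signal in each group (vertical axis, error bars SD of 3 arrays) for every probe set of the 8 genes with more than 1. The probe set used is black, the others are grey and the dotted line is the lower quartile of all values. Both Gli2 probe sets and all 3 of Smo share the pattern of the one used, while 1 of the 3 Ptch1 probe sets stays between 5.04 and 5.35.

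ESCs also had little Shh, which allows Ptch1 and Gli1 to be compared between low-Shh groups. Relative to IWP2, Ptch1 was higher in ESCs by 1.54 ± 0.095 (SE, limma adjusted p = 2.32e-07), or 2.91-fold with a 95% interval of 2.51 to 3.37. Gli1 was higher by 1.38 ± 0.126 (adjusted p = 4.88e-06), or 2.60-fold with an interval of 2.14 to 3.16. This size is a lower limit, since the IWP2 mean of Gli1, 4.54, lay close to the floor. The Shh means of these groups, ESC minus IWP2, differed by 0.56 on the brighter probe set and by -0.04 on the dimmer one. Their order is therefore not settled. The other Ptch1 probe sets were higher in ESCs too, by 0.67 and 0.31.

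Relative to vehicle, Ptch1 was lower in ESCs by 3.51-fold, with a log2 difference of -1.81 ± 0.095 (SE, limma adjusted p = 7.19e-08). Gli1 differed by -0.31, with a 95% interval from -0.59 to -0.03, and was just not called (adjusted p = 0.0521). Ptch1 was thus the 1 tested member of 9 with the order vehicle, ESC, IWP2 and all 3 comparisons called, an order held by 1.1% of all genes. Gli1 and Gli2 also had IWP2 below both other groups with both comparisons called, as 9.24% of all genes did.

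Smo, Gli2, Gli3, Hhip and Cdon differed between ESCs and both EpiSC groups. Of the 9 tested genes, 5 were lower than with vehicle (Ptch1, Smo, Gli3, Hhip and Cdon), 1 was higher (Gli2) and 3 were not called (Ihh, Gli1 and Boc). This share is close to the 66.6% of all genes called, and is therefore no result about the pathway. By direction, 38.7% of all genes were higher and 27.9% lower. All 6 calls were of at least 2-fold, and changes of that size were found in 9.63% of genes in the lower direction and 6.87% in the higher. The arrays did not overlap in 7 of the 9, as in 71% of all genes.

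Gli2 was 3.58-fold higher in ESCs than with vehicle, by 1.84 ± 0.059 log2 (SE, limma adjusted p = 1.89e-09). Gli3 was lower by 1.57 ± 0.079 (adjusted p = 5.25e-08) and Smo by 2.08 ± 0.063 (adjusted p = 1.34e-09). Cdon was lower by 1.71 ± 0.108 (adjusted p = 3.17e-07), but its dimmer probe set was not called against vehicle (-0.27, adjusted p over probe sets = 0.0789) or IWP2 (-0.26, 0.0984). Hhip was lower by 1.49 ± 0.182 (adjusted p = 4.9e-05), a lower limit since its ESC mean of 3.68 was under the floor. The comparisons with vehicle and with IWP2 share the ESC arrays. Against IWP2 the differences were 2.34 for Gli2, -2.09 for Gli3, -1.95 for Smo, -1.13 for Cdon, -1.36 for Hhip and -0.58 for Boc. In that comparison 8 of the 9 members were called, 3 of them higher and 5 lower, against 62.1% of all genes, 35.2% higher and 26.9% lower. Of these 8, the 3 higher ones and 4 of the 5 lower ones were of at least 2-fold, as were 7.87% and 9.4% of all genes. The arrays did not overlap in the same 8 members and in 67.1% of all genes. Ihh was the exception (adjusted p = 0.677).

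The order of the 3 groups differed from gene to gene. Shh had vehicle highest, with the order of the low groups not settled. Ptch1 and Gli1 had vehicle highest and IWP2 lowest, with vehicle and ESCs not called as different for Gli1. Gli2 had ESCs highest and IWP2 lowest. Smo, Hhip and Cdon had vehicle highest and ESCs lowest, and the EpiSC groups were not called as different for Smo and Hhip. Gli3 and Boc had IWP2 highest and ESCs lowest, and for Boc vehicle and ESCs were not called as different (adjusted p = 0.242). For Ihh no pair of groups was called.

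Of 12 measured genes that handle the ligand outside or at the surface of cells, 4 rose and 2 fell with IWP2, against 16.6% and 16.8% of all genes. Lrp2, an endocytic receptor for Shh, was at 8.75, 8.47 and 8.70 with vehicle, 10.12, 10.10 and 10.08 with IWP2 and 5.07, 5.19 and 4.97 in ESCs. It rose by 1.46 ± 0.083 with IWP2 (SE, limma adjusted p = 9.82e-07) and was lower in ESCs than with vehicle by 3.56 ± 0.083. Gpc3, a glypican that competes with Ptch1 for the ligand, fell by 1.77 ± 0.076 (adjusted p = 1.35e-07), from 10.52 to 8.74, and was at 9.10 in ESCs. Gpc6, another glypican, rose by 0.70. Disp1, which releases lipid-bearing ligand, fell by 0.59, but its other probe set was called in the opposite direction (0.47).

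In ESCs 6 of these 12 genes were lower and 3 higher than with vehicle, against 27.9% and 38.7% of all genes, with Gpc6 at -1.84 and Gpc3 at -1.41. Gas1 dropped by 2.00. Disp1, at -0.74, was again contradicted by its other probe set (0.42). Against IWP2, 4 were lower and 2 higher, against 26.9% and 35.2%, with Lrp2 at -5.02, Gpc6 at -2.55, Gas1 at -2.27 and Gpc4 at -0.45, the last contradicted by its other probe set (0.47). Hhat, the acyltransferase that attaches palmitate to Hedgehog proteins and belongs to the same enzyme family as Porcupine, was low throughout, at 3.52, 3.64 and 4.09. Its IWP2 difference of 0.12 was not called (limma adjusted p = 0.545). ESCs were higher than vehicle by 0.56 (adjusted p = 0.00376) and than IWP2 by 0.45 (0.0135). Both EpiSC means were under the floor, so these sizes are lower limits.

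Of 17 measured intracellular components, 5 rose and 0 fell with IWP2, against 16.6% and 16.8% of all genes, with differences from -0.20 to 0.77 and none of 2-fold. The number called ranged from 2 to 9 over the alternatives. Gpr161, a ciliary receptor that keeps the pathway off, rose by 0.77 ± 0.131 (SE, limma adjusted p = 0.00155). Evc (0.30), which anchors Smo signalling in the cilium, Prkacb (0.27), a protein kinase A subunit, and Btrc (0.27), an adaptor for Gli degradation, followed. Sufu, which binds and restrains Gli proteins, differed by -0.20 and was not called (adjusted p = 0.18).

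In ESCs 12 of the 17 were lower than with vehicle and 0 higher, against 27.9% and 38.7% of all genes, with a median of -0.69 against 0.12 over all genes. Gpr161 (-1.48), the Gli2 kinase Dyrk2 (-1.32), Gsk3b (-1.15) and Prkar1a (-1.09) differed most. Gpr161 was near the floor in ESCs, at 3.95, so its differences in both ESC comparisons are lower limits. Against IWP2, 13 were lower and 1 higher, against 26.9% and 35.2% of all genes, with Gpr161 at -2.24, Gsk3b at -1.31, Dyrk2 at -1.24 and Evc2 at -1.03. Of the called genes, Sufu and Csnk1a1 had further probe sets called the other way in both ESC comparisons. Prkar1a and Btrc had them in the comparison with IWP2. The 1 higher gene there, Cul3, had 4 of its 5 probe sets called lower. Stk36 was not called in either ESC comparison, but its other probe set was called lower in both (-1.36 against vehicle and -0.66 against IWP2). Btrc and Cul3, not called against vehicle, also had further probe sets called lower in that comparison.

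Genes for transport in the primary cilium, the organelle in which vertebrate Hedgehog signals are passed on, had 4 falls and 2 rises among 12 with IWP2, against 16.8% and 16.6% of all genes. Ift57 fell by 0.50, Kif3b by 0.34 and Dync2li1 by 0.33, and Ift172 rose by 0.34. In ESCs 9 were lower than with vehicle and 1 was higher, against 27.9% and 38.7% of all genes, with a median of -0.78. The intraflagellar transport gene Ift122 (-1.44), Tulp3 (-1.26), which carries receptors into the cilium, and Dync2li1 (-1.08) were lower and Ift52 was higher (1.30). Against IWP2, 8 were lower and 3 higher, against 26.9% and 35.2%, led by Tulp3 (-1.32), Ift122 (-1.23), Ift52 (1.04) and Ift172 (-0.99).

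**Figure D4:**
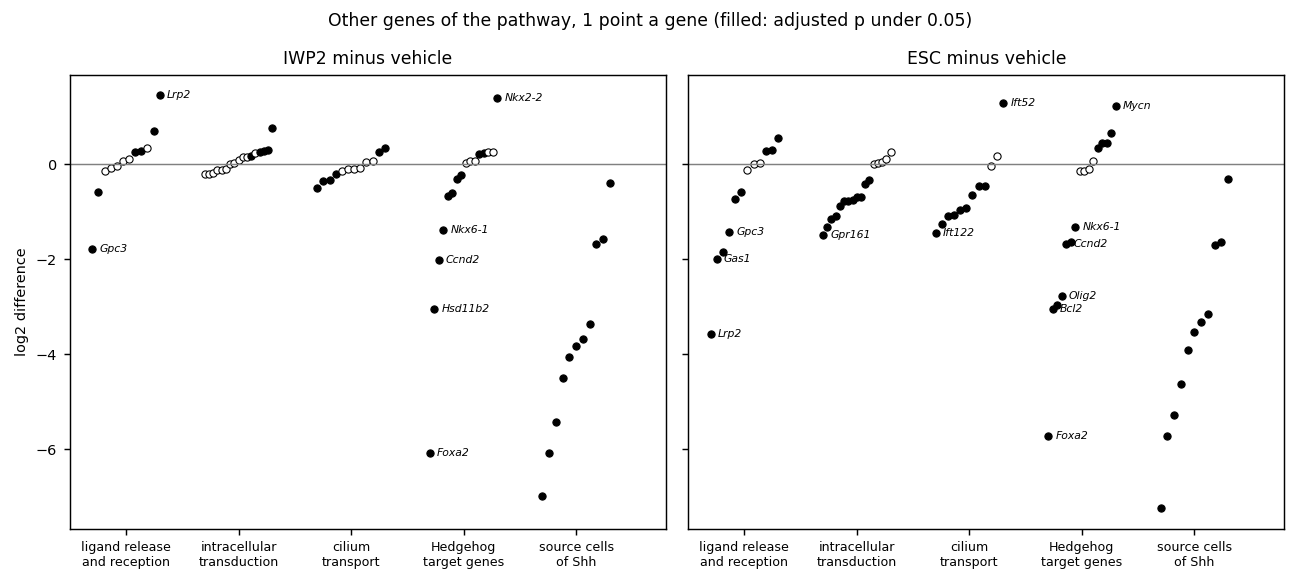
Log2 differences (vertical axis) of the other pathway genes, 1 point a gene in order of size within each list, for IWP2 and for ESC relative to vehicle. Filled points have an adjusted p under 0.05. With IWP2 the intracellular and cilium genes stay between -0.50 and 0.77, and all 11 genes of Shh source cells are below 0.

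Of 16 further genes known as Hedgehog targets in one tissue or another, 8 fell, 3 rose and 5 were not called with IWP2, against 16.8% of all genes lower and 16.6% higher. Their median of -0.09 was near that of all genes, 0.03. The largest falls were those of Foxa2, given above as a source cell gene too, Hsd11b2 and Ccnd2. Hsd11b2, which encodes a glucocorticoid-inactivating enzyme and responds to Shh in cerebellar precursors, was at 8.49, 8.83 and 8.37 with vehicle, 5.42, 5.67 and 5.48 with IWP2 and 5.89, 5.44 and 5.52 in ESCs. It fell by 3.04 ± 0.142 (SE, limma adjusted p = 2.49e-07), and ESCs were not called as different from IWP2 (0.09, adjusted p = 0.597).

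Ccnd2, a G1 cyclin, was at 9.66, 9.60 and 9.75 with vehicle, 7.70, 7.64 and 7.67 with IWP2 and 7.99, 7.97 and 8.06 in ESCs. It fell by 2.00 ± 0.059 (SE, limma adjusted p = 1.05e-08). Nkx2-2, a gene of the ventral neural tube that needs strong Shh signalling there, rose instead, by 1.40 ± 0.141 (adjusted p = 5.31e-05). Its vehicle values of 2.86, 2.76 and 3.07 were under the floor and those with IWP2, at 4.53, 4.42 and 3.94, were just above it.

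In ESCs 7 of the 16 were lower and 5 higher than with vehicle, against 27.9% and 38.7% of all genes. The apoptosis inhibitor Bcl2 (-3.04), Hsd11b2 (-2.95) and the ventral neural gene Olig2 (-2.77) were the largest differences after Foxa2 (-5.72). Against IWP2, 7 were higher and 5 lower, against 35.2% and 26.9%, with Bcl2 at -3.29, Olig2 at -3.03, Mycn at 1.90 and Nkx2-2 at -1.54. In ESCs Olig2, at 2.53, and Nkx2-2, at 2.75, were under the floor and Bcl2, at 4.31, was near it. The differences of these genes are lower limits, so their ranking by size is not settled. The order vehicle, ESC, IWP2 that Ptch1 had, with all 3 comparisons called, was found for 2 of the 16, Foxa2 and Ccnd2, though Foxa2 was near the floor in ESCs and with IWP2 and its arrays overlapped there. Of the 12 ligand handling genes Gpc3 had it, and of the intracellular and cilium genes 0.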

How the data were processed

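The deposited values, 45101 probe sets on 9 arrays, are on the log2 scale, and RMA and limma (versions not stated) appear in the submitters' processing notes. Per the labels, total RNA was labelled with biotin and each group has 3 biological replicates. The number of arrays limits the precision. Names came from the platform annotation, in which 34945 probe sets had 1 symbol, and taking 1 per gene left 18193 genes. A linear model with 1 mean per group over the 9 arrays was fitted with limma 3.58.1 under R 4.3.3, using eBayes (residual degrees of freedom 6, moderated 9.58). Tests were two-sided with Benjamini-Hochberg adjustment across the genes, and a gene is called at an adjusted p under 0.05. The median standard error of a difference was 0.0819.

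The 10 members and the gene lists were chosen with earlier results of these data known. Of each pathway list, up to 4 called genes with the largest difference in a comparison were named, and Dhh, Hhat, Sufu, Gas1 and Cul3 outside that rule for their role or their probe sets. The 5 genes nearest to Shh exclude Riken clones, Gm models and probe sets marked _x_at. Among the listed genes, Adrbk1, Arl13b, Rpgrip1l and Noto were not used here, and some others are not reported here. When IWP2 minus vehicle was simulated over 18193 genes, 50 changed per size, limma called 32% at a log2 change of 0.3, 72% at 0.5, 98% at 1 and 100% at 2, and 3.21% of calls were false. Far fewer genes changed there than the 33.5% called in the data. The adjustment therefore differs, and these rates do not carry over to the data. Alternatives were other choices of probe set, filter, scaling, offset, variance model and threshold, a replicate block and leaving out each array. Promoter sequences are from RefSeq (GRCm38.p6).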

Additional observations from a re-analysis of the deposited data

How the results depend on the processing

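Of 594 values of the 9 tested members under the alternatives, 562 kept their direction and their side of the threshold, 13 lost their call, 11 gained one and 8 changed sign. The number of members called was 4 to 6 for IWP2 minus vehicle, 5 to 7 for ESC minus vehicle and 7 to 8 for ESC minus IWP2. Leaving out each array gave 5 to 6, 6 to 7 and 8. The calls of Ptch1, Gli1, Gli2 and Gli3 for IWP2 minus vehicle held under all alternatives, except that of Ptch1 on the probe set with the second highest mean (-0.16, adjusted p = 0.193). On that probe set the Ptch1 difference between ESC and vehicle turned to 0.15 (not called), and that of Shh between ESC and IWP2 to -0.0408. The other 7 changes of sign were of values not called under either setting. Ihh for IWP2 minus vehicle turned to -0.0363 without IWP2 replicate 2, in a range of -0.0363 to 0.237 over the arrays left out. Hhip turned to 0.0034 without vehicle replicate 2 and 0.0206 without IWP2 replicate 2, in a range of -0.246 to 0.0206. Ihh for ESC minus IWP2 turned to -0.0298 with repeated quantile normalization, -0.0340 with cyclic loess, -0.0389 without IWP2 replicate 1 and -0.0172 without ESC replicate 3, in a range of -0.0389 to 0.235. Cdon lost its IWP2 call on the mean of its probe sets (-0.30, adjusted p = 0.0598). Gli1 for ESC minus vehicle was called under several alternatives, among them an offset of 32 (adjusted p = 0.02) and cyclic loess (0.0375). With single arrays left out its adjusted p ranged from 0.0136 to 0.174. The Shh differences from vehicle shrank to -5.16 with IWP2 and -4.94 in ESCs with the offset of 32, and to -3.92 and -3.67 on the mean of both probe sets. Chosen by correlation instead of distance, the genes most like Shh shared 1 of 5, Foxa2.

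Replicate numbers did not pair the samples: deviations of same-numbered arrays correlated at -0.0596 to 0.0507 over all comparisons. With the replicate block 5, 7 and 8 members were called, with Boc lost for IWP2 and Gli1 gained for ESC minus vehicle (adjusted p = 0.0128). The count of 5 intracellular genes called with IWP2 ranged from 2 to 9, and that of 6 cilium genes fell to as few as 1. Centring each array on its median over genes moved the median difference of all genes between ESC and vehicle from 0.12 to 0.24. No member changed its call or direction under that setting. Quantile normalization hides a change in total RNA per cell, and summarised values carry no detection calls.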
